A study of Mus musculus with 18 samples.

Results

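Ubiquitin is a small protein that is joined to other proteins in 3 steps, by an activating enzyme (E1), a conjugating enzyme (E2) and a ligase (E3) that picks the target, and deubiquitinases take it off again. The genes described here are those named for such enzymes, taken as every gene whose single platform symbol begins with Uba, Ube1 to Ube4, Usp, Uch, Cul, Fbx, Rnf, Siah, Nedd4 or Nedd8 in its numbered forms, with Ube2c left out. The rule used names and no measured value. It found 113 genes among the 8251 genes with a symbol of their own on the array, read by 156 probe sets, groups of short DNA probes for 1 transcript. Where a gene had several probe sets, as 36 of the 113 did, the one with the highest mean signal stood for it. By role the members were 3 E1 enzymes, 20 E2 enzymes, 39 E3 or E4 ligases, 5 cullins, 16 F-box proteins, 29 deubiquitinases and Nedd8. These roles follow the names, and the RefSeq gene table lists Siah1-ps1 as a pseudogene and Rnf227 as a long noncoding RNA, both counted here among the E3 or E4 ligases.

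The cells were G1E-ER4, 1 subclone of a mouse erythroid line derived from embryonic stem cells with a disrupted Gata-1 gene. All groups carried Gata-1-ER, a fusion of Gata-1 with the estradiol-binding domain, which estradiol makes active. RNA was taken at 0 h, before estradiol, and after 3, 7, 14, 21 and 30 h of it, with 3 biological replicates (A, B, C) per time and 18 Affymetrix MG-U74Av2 arrays in all. The 18 arrays held no cells that had estradiol but no fusion, and no untreated cells cultured on beside the treated ones.

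Attaching ubiquitin can mark a protein for the proteasome or change its place, partners or activity, according to how the ubiquitin chain is linked. Cullins are scaffolds of large ligases, in which an F-box protein or another adaptor holds the target, and Nedd8 is a relative of ubiquitin that switches cullins on. The pathway was first worked out in extracts of reticulocytes, the youngest red cells, which use it to remove proteins that mature red cells lack. ISG15 is another relative of ubiquitin, with an E1, an E2 and a deconjugating enzyme of its own.

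Signals are intensities on the linear scale of the deposited values, and tests used log2 values after 16 had been added, which understates the changes of dim genes. A gene was called when its adjusted p in limma, over all 12422 probe sets that were tested, was below 0.05. The standard error (SE) beside a log2 change comes from the same model, and a ± after a mean signal is the SD of 3 arrays. Signals of single arrays are written in the order A/B/C. No filter removed dim genes, so all 113 members were tested. Of the members, 15 stayed under a signal of 50 on every array, and 16 were read by probe sets of kinds that may also read related transcripts. All 18 arrays were on a common scale and none were identical. The 9 measured erythroid markers summed to signals between 57066 and 69093 at 30 h, against 10796 to 13283 at 0 h. Hba-a1 alone had a mean of 26549 at 30 h, against 6061 at 0 h. Of the 9, 6 were called higher at 30 h, and 3 were not called, Tfrc (0.71), Epor (0.02) and Epb42 (−0.13). Epor was called lower at 3 h (−0.67). Among markers of other cells, the 10 of neutrophils and macrophages summed to 437.6 to 608.7 at 30 h, against 288.5 to 311.2 at 0 h, and 1 of the 10 was called at 30 h. That 1 was Camp, an antimicrobial peptide of neutrophil granules, at a mean of 155 at 30 h, against 48.7 at 0 h (1.49, SE 0.27, adjusted p = 0.000237), and it was also called higher at 21 h, while Lyz2 stood at a mean of at most 4.07 at any time. The 7 fibroblast markers, none of them called at 30 h, summed to 676.2 to 947.3 at 30 h and to 559.1 to 630.8 at 0 h. The 6 mast cell markers summed to 107.5 to 150.6 at 30 h and to 55.5 to 110.3 at 0 h, with Cma1 called higher (1.68) and Cpa3 lower (−0.70). The 3 megakaryocyte markers summed to 110.8 to 192.3 at 14 h, 110.7 to 147.4 at 21 h and 60.0 to 69.6 at 30 h, against 56.8 to 67.2 at 0 h, and the 7 lymphocyte markers to 305.4 to 339.6 at 30 h and to 290.7 to 334.7 at 0 h. None of these 10 was called at 30 h, and the megakaryocyte marker Gp9 was called higher at 14 h (1.46) and 21 h (1.34). The part of these markers in the results below was not tested.

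By 30 h of estradiol, 32 of the 113 members were called higher than at 0 h (28.3%) and 13 lower (11.5%). Among all 8251 genes the shares were 14.7% higher and 16.5% lower. The median log2 change of the members was 0.159, against 0.0521 for all genes, and it was 0.0837 without quantile normalization and 0.0949 with scaling to a common median. In these bulk RNA samples, fewer cells of a type and less RNA per cell cannot be told apart. The members were brighter than the array as a whole, with a median mean signal of 161 against 68.1, and bright genes were called more often. Among the 49 members with a mean signal over 200, 49.0% were higher and 14.3% lower, against 30.7% and 34.0% of 2303 genes of that brightness. Among the 36 members between 50 and 200 the shares were 16.7% and 11.1%, against 17.4% and 19.6% of 2302 genes. Among the 28 members under 50 they were 7.14% and 7.14%, against 2.91% and 3.43% of 3646 genes.

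**Figure D1:**
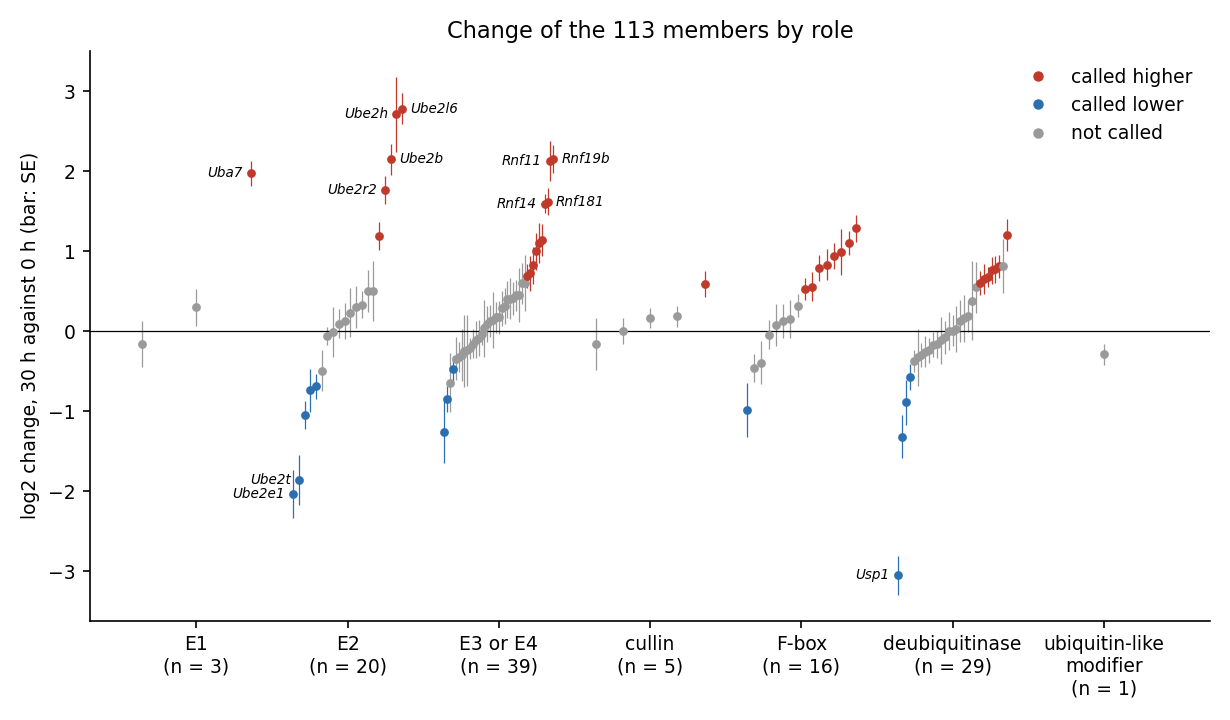
Log2 change at 30 h against 0 h for each of the 113 members, grouped by role on the horizontal axis and sorted by size within a role; points are estimates, bars their standard errors, red is called higher, blue called lower and grey not called. The E2 enzymes lay between 2.78 for Ube2l6 and −2.03 for Ube2e1, and Usp1, a deubiquitinase, lay lowest of all members at −3.05.

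Among the 20 E2 enzymes, 5 rose and 5 fell by 30 h (25.0% each, against 14.7% and 16.5% of all genes). The 5 that rose were Ube2l6, Ube2h, Ube2b, Ube2r2 and Ube2o, and the 5 that fell were Ube2e1, Ube2t, Ube2g1, Ube2v2 and Ube2n. The promoter sequences of 4 of them are given first because these E2 genes, of those with a certain probe set, changed most, in opposite directions. Each is the 250 bases before a start in the RefSeq promoter table (GRCm38.p6), the first the table lists where it has several, as for Ube2h and Ube2b, read 5′ to 3′ on the gene's strand, with CG dinucleotides in capitals. The windows are chr2:84798578-84798827 on the plus strand for Ube2l6, chr6:30304540-30304789 on the minus strand for Ube2h, chr11:52000787-52001036 on the minus strand for Ube2b and chr1:134962315-134962564 on the plus strand for Ube2t. The windows of Ube2l6, Ube2h and Ube2t adjoin the ends of their genes in the RefSeq gene table, whereas that of Ube2b lies inside its gene's span, chr11:51985138-52004145.
Ube2l6: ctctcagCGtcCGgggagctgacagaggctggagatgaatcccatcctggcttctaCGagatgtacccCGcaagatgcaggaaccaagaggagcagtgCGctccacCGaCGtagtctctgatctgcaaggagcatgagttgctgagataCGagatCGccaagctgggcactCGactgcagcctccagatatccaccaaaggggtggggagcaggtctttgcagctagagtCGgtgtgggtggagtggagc
Ube2h: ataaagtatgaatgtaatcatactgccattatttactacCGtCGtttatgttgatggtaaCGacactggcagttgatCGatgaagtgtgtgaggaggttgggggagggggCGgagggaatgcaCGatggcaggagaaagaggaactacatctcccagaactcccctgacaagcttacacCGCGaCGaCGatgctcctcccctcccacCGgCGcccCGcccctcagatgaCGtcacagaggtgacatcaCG
Ube2b: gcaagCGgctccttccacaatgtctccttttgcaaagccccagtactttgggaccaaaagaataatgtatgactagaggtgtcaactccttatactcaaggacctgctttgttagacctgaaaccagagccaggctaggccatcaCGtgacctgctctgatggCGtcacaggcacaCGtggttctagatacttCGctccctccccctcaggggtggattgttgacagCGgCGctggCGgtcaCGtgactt
Ube2t: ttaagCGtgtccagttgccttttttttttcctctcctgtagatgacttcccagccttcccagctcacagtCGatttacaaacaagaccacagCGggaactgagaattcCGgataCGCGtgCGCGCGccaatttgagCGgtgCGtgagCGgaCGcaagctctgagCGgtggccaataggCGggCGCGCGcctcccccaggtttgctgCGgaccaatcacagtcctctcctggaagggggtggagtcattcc
The sequences of Ube2l6, Ube2h and Ube2b, which rose, held 11, 15 and 9 CG dinucleotides, and that of Ube2t, which fell, held 19. Of the 113 members, 82 had a window in the table, and in it the median count was 17 over the 23 members that rose, 28 over the 9 that fell and 14 over 6572 genes of the array. The letters AGATAA or TGATAA, a form of the GATA motif, were searched on both strands of the table's whole window, which also holds 50 bases after the start. They occurred in 0 of the 23 windows of members that rose, in 1 of 9 of those that fell (Fbxo21), in 3.66% of the 82 member windows and in 11.5% of those of the array's genes. CCAAT, searched likewise, occurred in 5 of 23, 2 of 9, 28.0% and 38.3%, and 3 times in the printed sequence of Ube2t. The E2F letters TTTCCCGC, TTTGGCGC, TTTCGCGC or TTTGCCGC occurred in 1 of 23 (Usp19), 0 of 9, 2.44% and 3.79%. A match of letters is a description of the window and not a binding site.

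Ube2l6, the E2 for ISG15, made the largest rise among the members. Its signals were 67.6/87.4/88.4 at 0 h, 105/90.7/118 at 3 h, 173/219/163 at 7 h, 335/281/381 at 14 h, 504/318/522 at 21 h, with 520.4/644/711 at 30 h. The arrays of 7 h and later all lay above those of 0 h and 3 h, and at 30 h the gene stood 7.7-fold higher than at 0 h (log2 change 2.78, SE 0.20, adjusted p = 2.25e-09). It was called at 7 h (1.06, SE 0.20, adjusted p = 0.00293) and at each time after that. Ube2h, an E2 that works with the CTLH ligase in maturing red cells, had signals of 29.3/97.8/24.4 at 0 h, 20.8/88.7/23.1 at 3 h, 160.1/25.7/106 at 7 h, 236/99.3/95.4 at 14 h, 241/179/192 at 21 h, with 361/358/329.6 at 30 h. Array B at 0 h and at 3 h read well above A and C, and the SE was wide, while all 3 arrays at 30 h lay above every array of 0 h (2.71, SE 0.47, adjusted p = 0.000161). The other probe set of Ube2h changed by 1.50 (adjusted p = 3.48e-05).

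Ube2b, one of the mouse forms of the yeast DNA repair enzyme Rad6, had signals of 70.4/53.6/82.4 at 0 h, 78.9/66.1/64.7 at 3 h, 77.1/87.1/83.1 at 7 h, 132/135/123 at 14 h, 198/216/174 at 21 h, with 239.9/386/394 at 30 h. The replicates were close up to 21 h, and array A lay below B and C at 30 h (2.15, SE 0.19, adjusted p = 4.9e-08). Its near copy Ube2a stood at 0.50 (SE 0.26, adjusted p = 0.187) and was not called. Ube2r2, a form of Cdc34 that builds chains on the targets of cullin ligases, had signals of 881/608/599 at 0 h, 712/679/516 at 3 h, 798/693/612 at 7 h, 978/1039/792 at 14 h, 1729/1933/1468 at 21 h, with 2554/2835/2405 at 30 h. Its signals at 3 h and 7 h overlapped those of 0 h, and from 21 h on all arrays lay above them (1.77, SE 0.18, adjusted p = 1.86e-07).

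Ube2o, a large enzyme that joins E2 and E3 activity and removes ribosomal proteins in reticulocytes, rose late. Its signals were 234/296/226 at 0 h, 209/164/146 at 3 h, 189.9/231/242 at 7 h, 231/188/192 at 14 h, 369.5/249/248 at 21 h, with 501/555/637 at 30 h. The arrays at 14 h overlapped those at 0 h, and all arrays at 30 h lay above those of every earlier time (1.19, SE 0.18, adjusted p = 2.53e-05 against 0 h; 1.42, SE 0.18, adjusted p = 1.02e-05 against 14 h). A dimmer probe set of Ube2o, of an uncertain kind, changed by 1.62 (adjusted p = 0.0019), and the third was near background.

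The E2 genes that fell included Ube2t, which attaches ubiquitin in the Fanconi anemia pathway of DNA repair. Its signals were 181/126/117 at 0 h, 103/142/114 at 3 h, 88.4/82.9/119 at 7 h, 62.2/119/141 at 14 h, 38.1/80.3/65.6 at 21 h, with 19.9/22.4/38.0 at 30 h. At 14 h arrays B and C were level with those at 0 h, and at 30 h all 3 lay below every array of the earlier times, though only just below 21 h A (−1.86, SE 0.31, adjusted p = 0.00011). Without array 0 h A or 21 h A its call at 21 h was lost (−0.84, adjusted p = 0.12, and −0.68, adjusted p = 0.167). Ube2e1, a broadly acting E2 read by a probe set of an uncertain kind, had 18.7/22.2/11.9 at 30 h, against 123/119/125 at 0 h (−2.03, SE 0.30, adjusted p = 2.63e-05). Its fall was called from 14 h on, but the call at 14 h was lost without any 0 h array and without 14 h A (−0.73, adjusted p = 0.154). Ube2g1, which builds chains on targets of cullin ligases, had 138/149.6/139 at 30 h, against 288/331/384 at 0 h (−1.04, SE 0.17, adjusted p = 9.79e-05). The highest array at 30 h was far below the lowest at 0 h in both genes.

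Ube2n and Ube2v2 form a pair that makes a type of chain used in signalling and DNA repair, and both were called lower. Ube2n had 324/468/374 at 30 h, against 757/593/634 at 0 h (−0.69, SE 0.16, adjusted p = 0.00211), with every array at 30 h below those at 0 h. Ube2v2 was dim, with 33.9/10.7/24.3 at 30 h, against 57.8/35.8/47.7 at 0 h (−0.74, SE 0.27, adjusted p = 0.0476), and its call was lost under 10 alternatives, among them the removal of 0 h A, 0 h C, 30 h B or 30 h C and the averaging of all its probe sets (−0.15, adjusted p = 0.717). Ube2v1, the other partner of Ube2n, was among the brightest members and showed no call in the F test over time. Its mean was 1053 ± 117 at 30 h, against 1023 ± 90.9 at 0 h (log2 change after quantile normalization −0.06, SE 0.11, adjusted p = 0.752). The remaining E2 genes not called at 30 h were Ube2a, Ube2d2a, Ube2d3, Ube2e3, Ube2f, Ube2k, Ube2s, Ube2w and Ube2z, with changes between −0.49 and 0.51.

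**Figure D2:**
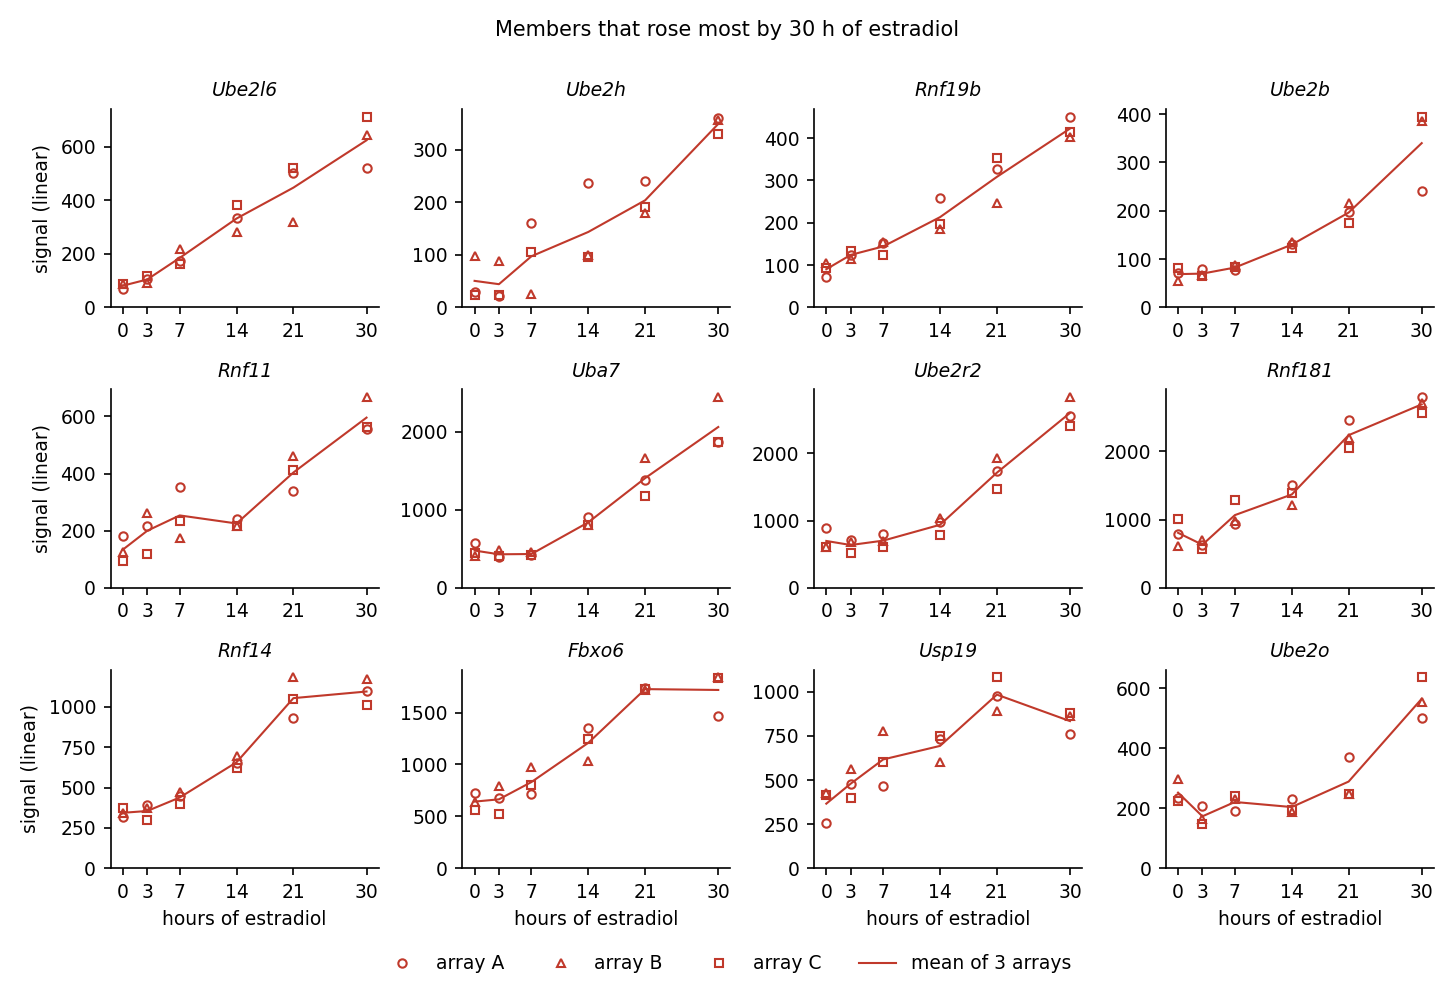
Signal on the linear scale against hours of estradiol for the 12 members with the largest called rises at 30 h; symbols are single arrays A, B and C, the line joins the means of 3 arrays, and each vertical axis starts at 0. The means of Ube2l6 and Rnf19b were higher at each later time, whereas Ube2o stood at a mean of 564 at 30 h, against 204 at 14 h.

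Of the 3 E1 genes 1 was called. Uba7, the activating enzyme for ISG15, had signals of 579/411/445 at 0 h, 394/484/412 at 3 h, 426/453/422 at 7 h, 908/806/807 at 14 h, 1384/1659.6/1178 at 21 h, with 1872/2446/1873 at 30 h. The arrays of 3 h and 7 h were level with those of 0 h, and from 14 h on all 3 arrays lay above them (0.82, SE 0.15, adjusted p = 0.00102 at 14 h; 1.97, SE 0.15, adjusted p = 8.29e-09 at 30 h). Uba3, the E1 subunit for Nedd8, stood at 0.30 (SE 0.23, adjusted p = 0.403), and Uba1y, the Y-linked E1 of mice, was dim on every array.

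In the ISG15 set the E1 and the E2 rose, while its deconjugating enzyme Usp18 took another course. Usp18 had signals of 10.3/7.0/4.2 at 0 h, 52.6/38.7/45.8 at 3 h, 34.6/22.8/25.3 at 7 h, 17.5/18.9/12.6 at 14 h, 35.5/2.8/7.4 at 21 h, with 4.6/24.3/30.9 at 30 h. All 3 arrays at 3 h lay above every array of the other times, and the gene was called at 3 h (1.46, SE 0.32, adjusted p = 0.026) but not at 30 h (0.55, SE 0.32, adjusted p = 0.244). Usp18 was dim, and the call at 3 h was lost without any 1 of the 6 arrays compared, with changes between 1.38 and 1.55. Isg15 itself, the modifier, was near background, with a mean of 12.1 at 30 h, against 9.67 at 0 h (0.10, SE 0.22, adjusted p = 0.82).

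The 39 genes counted as E3 or E4 ligases held 10 called higher (25.6%, against 14.7% of all genes) and 3 called lower (7.69%, against 16.5%) at 30 h. Rnf19b, a RING-between-RING ligase, had signals of 72.1/105/93.5 at 0 h, 123/115/134 at 3 h, 151/156/125 at 7 h, 258/184/197 at 14 h, 326/246/353 at 21 h, with 450.1/403/414 at 30 h. Every array from 3 h on lay above those of 0 h, and the difference was called from 14 h (1.17, SE 0.17, adjusted p = 9.81e-05) to 30 h (2.15, SE 0.17, adjusted p = 1.28e-08). Rnf14, another ligase of that class, had 1096/1175/1014 at 30 h, against 316/339.9/374 at 0 h (1.59, SE 0.12, adjusted p = 4.4e-09), and its second probe set changed by 1.09 (adjusted p = 0.00135). Its mean was 1095 at 30 h, against 1054 at 21 h.

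Rnf11, a small RING protein read by a probe set of an uncertain kind, had 557/666/564 at 30 h, against 182/125/94.1 at 0 h (2.12, SE 0.25, adjusted p = 1.61e-06). Between 14 h and 30 h it was called again (1.35, SE 0.25, adjusted p = 0.000734). Rnf181, a RING ligase, had 2800.1/2707/2561 at 30 h, against 796/608/1015 at 0 h (1.62, SE 0.17, adjusted p = 3.48e-07). In both genes the arrays at 30 h lay far above those at 0 h. Ube4b, an E4 that lengthens ubiquitin chains, had 554/468/442 at 30 h, against 173/237/277 at 0 h (1.14, SE 0.20, adjusted p = 0.000208) and had been called at 14 h (1.02, SE 0.20, adjusted p = 0.0016).

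Rnf10, the member with the highest mean signal, had signals of 2387/2297/2211 at 0 h, 2419/2049/2152 at 3 h, 2534/3168/2611 at 7 h, 3828/4201/3481 at 14 h, 4115/2079/5442 at 21 h, with 4575/6120.1/5838 at 30 h. Array B at 21 h read below all 3 arrays at 0 h, the other arrays of 14 h and later lay above them, and the gene was called at 30 h (1.11, SE 0.25, adjusted p = 0.00183). Rnf145, a ligase of the endoplasmic reticulum that acts in sterol control, was high at 7 h, lower at 14 h and spread at 30 h, with signals of 315/540.3/498 at 0 h, 863/552/780.0 at 3 h, 1079.8/977/802 at 7 h, 642/572/524 at 14 h, 812/941/707 at 21 h, with 1127/1144/585 at 30 h. At 14 h 2 of its 3 arrays were above all arrays of 0 h, and at 30 h it was called with a wide SD (1.0, SE 0.23, adjusted p = 0.0022). The others called higher were Rnf26 (0.69), a ligase that acts at the endoplasmic reticulum, Rnf103 (0.82) and the noncoding Rnf227 (0.72). Rnf227 never passed a signal of 25.0, and leaving out 0 h B (0.70, adjusted p = 0.055) or 30 h C (0.58, adjusted p = 0.0948) ended its call. That of Rnf103 ended without 0 h A (0.67, adjusted p = 0.0647) and in a fit of only the compared times. With all probe sets of a gene averaged, neither Rnf103 (0.35, adjusted p = 0.185) nor Rnf227 (0.36, adjusted p = 0.0674) was called.

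The 3 ligases called lower were Siah2, Rnf149 and Nedd4. Siah2, which acts on the enzymes that sense oxygen, had signals of 106/113/87.6 at 0 h, 79.4/55.1/69.8 at 3 h, 86.8/81.6/127 at 7 h, 65.4/36.9/69.2 at 14 h, 64.7/5.8/23.3 at 21 h, with 44.6/8.5/57.6 at 30 h. The arrays at 21 h and 30 h scattered widely, all below those at 0 h (−1.26, SE 0.39, adjusted p = 0.0186 at 30 h), and leaving out 0 h B (−1.19, adjusted p = 0.061) or 30 h B (−0.82, adjusted p = 0.128) ended the call at 30 h. Without 21 h B the call at 21 h was lost too (−1.06, adjusted p = 0.063). Its relatives Siah1a and Siah1b changed by 0.45 and 0.09 and were not called. Rnf149, a ligase with a membrane span, had 238/293/335 at 30 h, against 505/541/643 at 0 h (−0.85, SE 0.17, adjusted p = 0.000529), with no overlap. Nedd4, the founding member of the HECT ligases that carry its name, had 399.5/457/373 at 30 h, against 642/518/637 at 0 h (−0.48, SE 0.16, adjusted p = 0.0364), and the call was lost without 0 h A, 0 h C, 30 h A or 30 h C (adjusted p from 0.0823 to 0.13). Its dimmer probe set stood at 0.28, both probe sets are of uncertain kinds, and their average was not called (−0.10, adjusted p = 0.737).

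Among the 5 cullins 1 was called, Cul4a, the scaffold that binds its adaptors through Ddb1. Cul4a had signals of 528/564/619 at 0 h, 920.3/891/923 at 3 h, 1545/1413/1694 at 7 h, 1785/1292/1514 at 14 h, 1369/1107/924 at 21 h, with 833/919/872 at 30 h. The 3 arrays of each later time lay above those of 0 h, with the highest at 7 h and 14 h. It was called higher at 3 h (0.70, SE 0.16, adjusted p = 0.0373), 7 h (1.50, SE 0.16, adjusted p = 7.09e-06), 14 h (1.45, SE 0.16, adjusted p = 2.8e-06), 21 h and 30 h (0.59, SE 0.16, adjusted p = 0.00803). From 14 h to 30 h it was called lower (−0.86, SE 0.16, adjusted p = 0.000752), the only one of the 17 members higher at 14 h of which that was true. The call at 3 h was lost without any 1 of the 6 arrays compared, with changes between 0.66 and 0.76. Ddb1 was called higher at 14 h (0.51, adjusted p = 0.0345) and 21 h (0.63, adjusted p = 0.00509). At 30 h it was not called (0.41, SE 0.15, adjusted p = 0.0573).

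Cul1, Cul2, Cul3 and Cul7 were not called in any comparison. Cul1, the scaffold of the F-box ligases, had 428/387/318 at 30 h, against 374/355/332 at 0 h (0.16, SE 0.12, adjusted p = 0.408), and the arrays overlapped. Cul3 had one of the highest p values of the bright members in the F test over time (adjusted p = 0.683). Of the Nedd8 pathway, Nedd8 itself, read by a probe set of an uncertain kind, was not called at 30 h (−0.29, SE 0.13, adjusted p = 0.113). Nor were Uba3, Ube2f, an E2 for Nedd8 (0.51, SE 0.38), and Rnf7, a RING partner of cullins (−0.64, SE 0.37).

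The 16 F-box genes held 8 called higher and 1 called lower at 30 h, against 14.7% and 16.5% of all genes. Fbxo6, which recognises glycoproteins, had signals of 728/638/559 at 0 h, 674/792/526 at 3 h, 711/976/804 at 7 h, 1349/1030.5/1246 at 14 h, 1735/1718/1724 at 21 h, with 1471/1847/1834 at 30 h. Its arrays at 14 h and later all lay above those of the earlier times (1.28, SE 0.17, adjusted p = 5.06e-06), and the average of its probe sets changed by 0.69 (adjusted p = 0.00381). Fbxw2 had 539/644/543 at 30 h, against 218/297/299 at 0 h (1.10, SE 0.15, adjusted p = 9.58e-06). Fbxw7, the adaptor that targets cyclin E and Myc, had 118/163/108 at 30 h, against 70.4/62.6/74.9 at 0 h (0.83, SE 0.19, adjusted p = 0.00267), with no overlap of the arrays in either gene.

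Fbxw11, one of the beta-TrCP adaptors, had 256/274/188 at 30 h, against 177/96.5/99.9 at 0 h (0.99, SE 0.28, adjusted p = 0.0127). Array A at 0 h lay just below array C at 30 h, and the call was lost without 0 h B, 0 h C or 30 h B (adjusted p from 0.0541 to 0.0634). The average of its probe sets changed by 0.64 and was still called. Fbxw4 changed by 0.79, Fbxo38 by 0.53 and Fbxo9 by 0.56. Fbxo9 lost its call without 0 h A (0.40, adjusted p = 0.151) or 30 h B (0.44, adjusted p = 0.124). The Fbxo9 call was also lost without quantile normalization (0.45, adjusted p = 0.0791) and with scaling to a common median (0.46, adjusted p = 0.123). A fit of only the compared times ended it as well (0.55, adjusted p = 0.0565). Fbxo3 was called higher (0.93, SE 0.16, adjusted p = 0.000165), but its second probe set, of similar signal, stood at 0.07 (adjusted p = 0.808), so its probe sets disagree. Fbxo21 was the F-box gene that fell, with 20.3/21.9/11.7 at 30 h, against 56.7/49.6/46.5 at 0 h (−0.99, SE 0.34, adjusted p = 0.0356). It was dim, and its call at 30 h was lost without any 1 of the 0 h arrays, 30 h A or 30 h C (adjusted p from 0.0684 to 0.146).

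Among the 29 deubiquitinases, 7 were called higher (24.1%, against 14.7% of all genes) and 4 lower (13.8%, against 16.5%) at 30 h. Usp1, which takes ubiquitin off the Fanconi protein FANCD2 and the replication clamp PCNA, made the largest fall of all members. Its signals were 432/388/404 at 0 h, 426/369/444 at 3 h, 232/153/212 at 7 h, 127/199/173 at 14 h, 48.0/78.7/99.1 at 21 h, with 31.7/42.6/31.3 at 30 h. The arrays at 3 h were level with those at 0 h, those from 7 h on were all lower, and those at 30 h were the lowest of all (−3.05, SE 0.24, adjusted p = 1.02e-08). The fall was called at 7 h (−1.0, SE 0.24, adjusted p = 0.0225), 14 h (−1.24, SE 0.24, adjusted p = 0.00146) and 21 h (−2.22, SE 0.24, adjusted p = 1.13e-06) and again between 14 h and 30 h (−1.81, SE 0.24, adjusted p = 2.51e-05). The call at 7 h was lost without any 1 of the arrays compared except 7 h A. Ube2t, the E2 that acts on FANCD2, was lower as well, so a member that attaches this mark and one that removes it both fell.

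Uchl5, a deubiquitinase bound to the proteasome, had signals of 355/329/404 at 0 h, 399/296/724 at 3 h, 333/278/332 at 7 h, 224/362/239 at 14 h, 126/186/212 at 21 h, with 109/115/158 at 30 h. Array C at 3 h stood apart at the top, and all arrays at 30 h lay below those at 0 h (−1.32, SE 0.27, adjusted p = 0.000744). Usp14, another deubiquitinase that binds the proteasome, was not called (−0.17, SE 0.15, adjusted p = 0.496). Usp10 had 222/188/122 at 30 h, against 275/480.5/342 at 0 h (−0.89, SE 0.28, adjusted p = 0.0215), and leaving out 0 h B (−0.68, adjusted p = 0.122) or 30 h C (−0.64, adjusted p = 0.138) ended its call. Usp39, a splicing factor that resembles deubiquitinases, had 89.0/85.9/108 at 30 h, against 157/159/157 at 0 h (−0.57, SE 0.16, adjusted p = 0.00978), with no overlap.

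**Figure D3:**
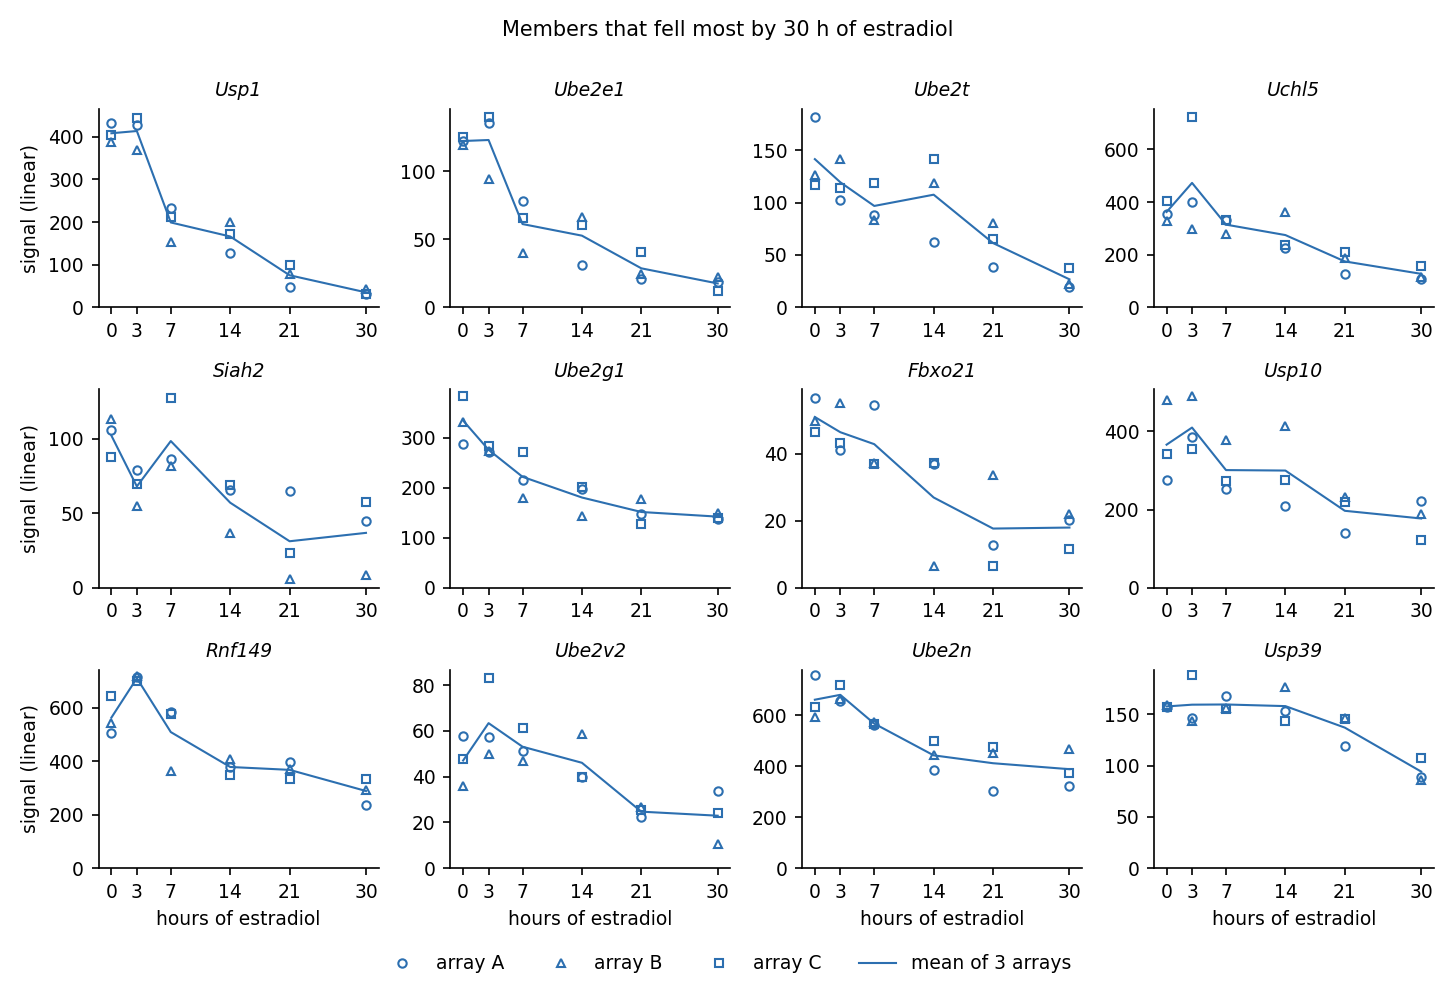
Signal on the linear scale against hours of estradiol for the 12 members with the largest called falls at 30 h; symbols are single arrays A, B and C, the line joins the means of 3 arrays, and each vertical axis starts at 0. Usp1 stood at a mean of 35.2 at 30 h, against 199 at 7 h, and the arrays of Siah2, Fbxo21 and Usp10 scattered more than those of Usp1, Ube2g1 and Usp39.

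Of the deubiquitinases that rose, Usp19, which is anchored in the endoplasmic reticulum, changed most. Its signals were 254/428/416 at 0 h, 476/562/400.1 at 3 h, 468/779/604 at 7 h, 731/599.7/750.3 at 14 h, 975/893/1084 at 21 h, with 762/863/878 at 30 h. The arrays of 14 h and later lay above all of 0 h, with the highest mean at 21 h (1.20, SE 0.20, adjusted p = 7.83e-05 at 30 h), and the second probe set changed by 1.16 (adjusted p = 0.00864). Usp4 had 592/839/681 at 30 h, against 412/433/468 at 0 h (0.68, SE 0.12, adjusted p = 0.000227). Its close relative Usp15 had 328/397/308 at 30 h, against 233/265/222 at 0 h (0.60, SE 0.15, adjusted p = 0.00397), and in neither gene did the arrays overlap. With all probe sets of a gene averaged, neither Usp4 (0.39, adjusted p = 0.0597) nor Usp15 (0.44, adjusted p = 0.184) was called.

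Usp3, which acts on histones, changed by 0.81, Usp8, which acts on endosomes, by 0.76, Usp9x by 0.77 and Usp33 by 0.65. The call of Usp33 at 30 h was lost without 0 h A (0.58, adjusted p = 0.0625) or 30 h A (0.55, adjusted p = 0.0752). Scaling to a common median (0.58, adjusted p = 0.0562) or a fit of only the compared times (0.65, adjusted p = 0.0639) also ended it. Usp25, read by a probe set of an uncertain kind, with 269/130.5/206 at 30 h, against 181/88.6/89.3 at 0 h, had the largest change among the members not called, and its arrays overlapped (0.81, SE 0.33, adjusted p = 0.0833). Usp34 was not called by its brightest probe set (−0.37, SE 0.14, adjusted p = 0.0607), while its dimmer one was lower (−1.18, adjusted p = 0.00329). Of the other deubiquitinases, Usp7 stood at −0.29, Usp5 at −0.17 and Usp22 at 0.03, none called.

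Over time the calls built up. After 3 h of estradiol 3 members were higher and 1 lower, against 1.02% and 0.388% of all genes. At 7 h there were 7 higher and 1 lower, against 3.21% and 2.11% of all genes. At 14 h the counts were 17 and 6 (8.00% and 8.17% of all genes) and at 21 h 28 and 9 (11.4% and 13.1%). The F test over the 6 times called 49 members, 43.4%, and 32.0% of all genes. As many members, 49, were called against 0 h at 1 or more times, though the sets differ. Fbxw11, for example, was called at 21 h and 30 h but not in the F test (adjusted p = 0.0605). Of the 49 called against 0 h, 0 were called in both directions. A further count found 4 called before 30 h but not at 30 h. They were Usp18 and Rnf5, first called at 3 h, and Rnf8 and Rnf141, first called at 21 h. Neither count was made over all genes.

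**Figure D4:**
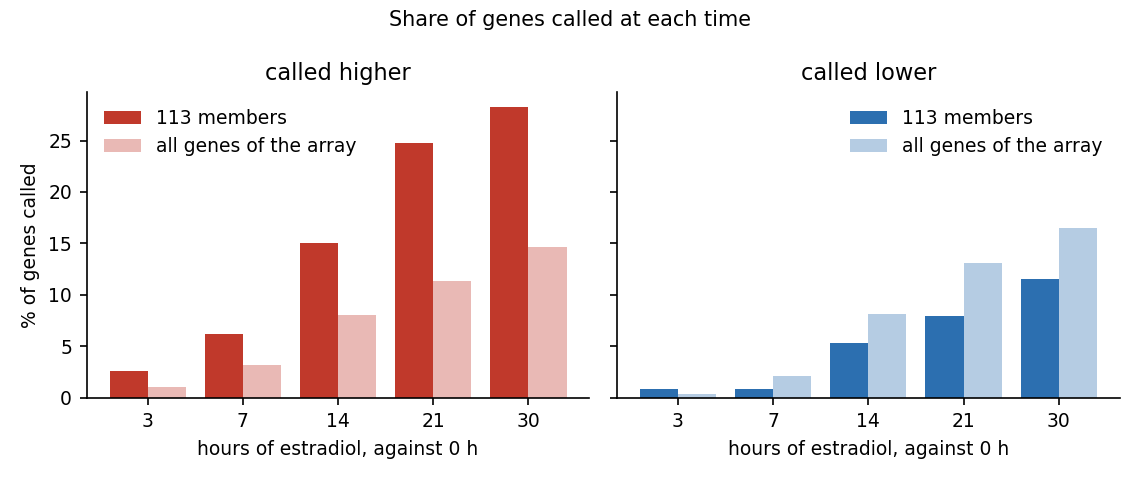
Percent of genes called higher (left) and lower (right) against 0 h at each of the 5 later times, for the 113 members (dark bars) and the 8251 genes of the array (pale bars). At 30 h 28.3% of the members were higher, against 14.7% of all genes, and 11.5% were lower, against 16.5%; the members were also brighter than the array's genes.

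The genes called at 3 h were Cul4a and Usp18, described above, and Usp33 and Rnf5. Usp33 had 137/115/132 at 3 h, against 56.3/58.6/68.3 at 0 h (0.91, SE 0.19, adjusted p = 0.0203), and it stayed called at each later time, with its highest mean at 14 h (1.21, SE 0.19, adjusted p = 0.000189). Its call at 3 h was lost without 0 h A, 0 h B, 3 h A or 3 h C (adjusted p from 0.0764 to 0.114), and at 7 h without 7 h C, 0 h A or 0 h B (adjusted p from 0.0606 to 0.116). A fit of only the compared times ended both calls (adjusted p = 0.0776 at 3 h and 0.137 at 7 h). Scaling to a common median ended that at 7 h (adjusted p = 0.0534). Rnf5, a ligase of protein quality control at the endoplasmic reticulum, had signals of 544/484/645 at 0 h, 338/337/355 at 3 h, 459.9/505/454 at 7 h, 684/540.4/583 at 14 h, 685/577/618 at 21 h, with 508/511/549.8 at 30 h. The 3 arrays of 3 h lay below all others, and by 14 h the gene was back among the arrays of 0 h (−0.71, SE 0.13, adjusted p = 0.00738 at 3 h; −0.04, SE 0.13, adjusted p = 0.889 at 30 h). The call at 3 h was lost without 0 h C (−0.61, adjusted p = 0.058). Scaling to a common median (−0.57, adjusted p = 0.0806) or a fit of only the compared times (−0.69, adjusted p = 0.0518) also ended it.

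With 1 array of 0 h or 3 h left out, the count of members called at 3 h was 1, or 2 when that array was 3 h B, against 4 with all arrays. Cul4a and Usp33 were again higher at 7 h, and Ube2l6, Usp15, Rnf145 (1.13, SE 0.23, adjusted p = 0.00567), Usp19 (0.78, SE 0.20, adjusted p = 0.0278) and Usp4 (0.63, SE 0.12, adjusted p = 0.00379) were called for the first time. Usp19 lost this call without 0 h A (0.54, adjusted p = 0.157), 7 h B (0.60, adjusted p = 0.167) or 7 h C (0.78, adjusted p = 0.0765). It also lost the call with scaling to a common median (0.72, adjusted p = 0.134), with no intensity trend and in a fit of only the compared times. Usp4 lost its call at 7 h with scaling to a common median (0.58, adjusted p = 0.109) and with its probe sets averaged (0.48, adjusted p = 0.0836). The count at 7 h was 5 without 0 h A, without 0 h B or without 7 h C, and 4 with scaling to a common median, against 8 with all arrays.

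**Figure D5:**
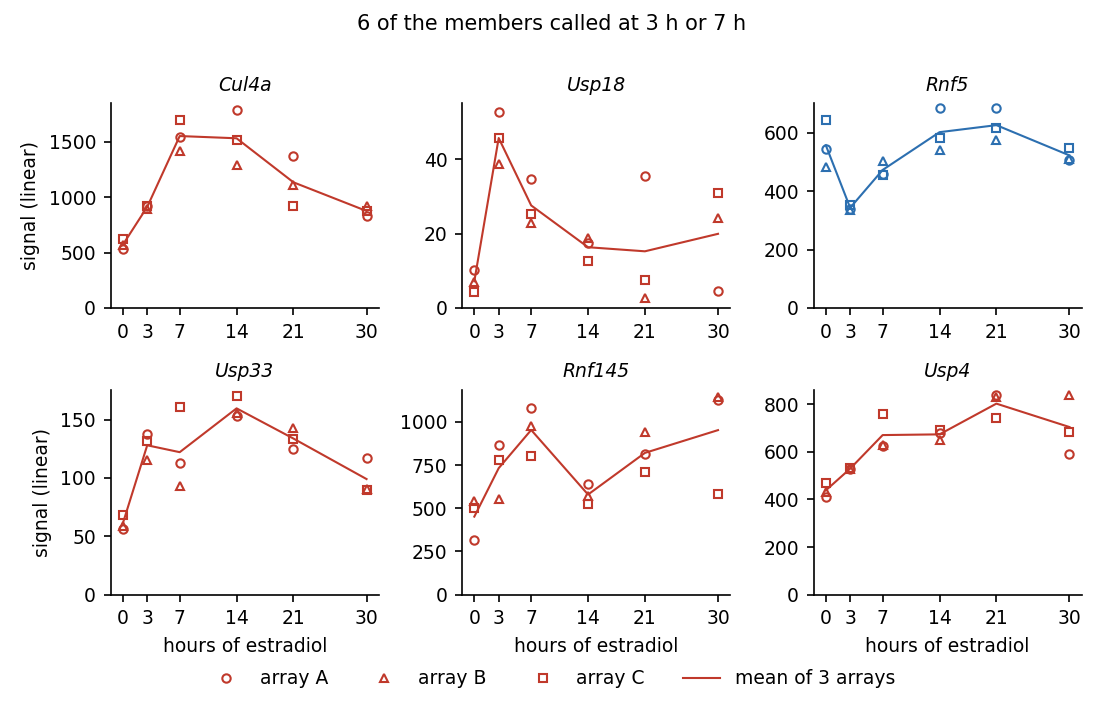
Signal on the linear scale against hours of estradiol for 6 members called at 3 h or 7 h; symbols are single arrays A, B and C, the line joins the means of 3 arrays, each vertical axis starts at 0, and blue marks the one called lower at 3 h. Usp18 and Rnf5 were furthest from 0 h at 3 h, with means of 45.7 and 343, while Cul4a was highest at 7 h with a mean of 1551.

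New rises of members came mostly at 14 h and 21 h, when 8.00% and 11.4% of all genes were higher. Among members ever higher, the first call came at 3 h for 3, at 7 h for 5, at 14 h for 11, at 21 h for 10 and at 30 h for 6. For members ever lower, it came at these times for 1, 1, 5, 4 and 3. First calls were not counted over all genes. At 14 h Ube2n was lower (−0.55, SE 0.16, adjusted p = 0.0232), a call lost without 0 h A, 14 h A or 14 h B. Scaling to a common median (−0.59, adjusted p = 0.113) or a fit of only the compared times (−0.54, adjusted p = 0.0564) also ended it. Nedd4 was lower at 14 h with its largest change of the course (−0.73, SE 0.16, adjusted p = 0.00429), though not with its probe sets averaged (−0.33, adjusted p = 0.245). At 21 h the largest changes were those of Ube2l6 (2.30), Ube2h (1.96), Rnf19b (1.69), Rnf14 and Rnf11 (1.57 each) upward and of Usp1 and Ube2e1 (−1.60) downward.

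Between 14 h and 30 h, 16 members were higher and 6 lower, against 7.53% and 9.59% of all genes. Of the 17 members higher at 14 h, 8 were called higher again by 30 h, and of the 6 lower at 14 h, 2 were called lower again. Such repeated calls were not counted over all genes. The largest called rises in this span were those of Ube2o, Rnf11, Ube2r2 (1.33, SE 0.18, adjusted p = 2.11e-05), Ube2b (1.33, SE 0.19, adjusted p = 6.07e-05) and Uba7 (1.15, SE 0.15, adjusted p = 2.54e-05). Ube2h, at 1.35, SE 0.47, adjusted p = 0.0648, was not called. Falls were those of Usp1, Ube2t (−1.47, SE 0.31, adjusted p = 0.00255), Ube2e1, Uchl5 (−0.95, SE 0.27, adjusted p = 0.0194), Cul4a and Usp39. Without array 14 h B the count was 14 members rather than 22. Leaving out 14 h B (−0.75, adjusted p = 0.111), 30 h A or 30 h B ended the call of Uchl5, and that of Ube2e1 (−0.99, SE 0.30, adjusted p = 0.0313) ended without 14 h B, 14 h C, 30 h A or 30 h C (adjusted p from 0.0713 to 0.142).

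Other genes of the pathway, from lists of known components, moved in both directions by 30 h, when 14.7% of all genes were higher and 16.5% lower. Of 13 measured ubiquitin and ubiquitin-like modifiers 7 were higher (53.8%) and 1 lower (7.69%), with a median of 1.0. The highest were the autophagy modifiers Map1lc3b, at a mean of 2014 at 30 h against 320.5 at 0 h (2.55), and Gabarap, at 7351 at 30 h against 1188 at 0 h (2.51). Sumo3 was lower (−1.14). Of 25 ubiquitin receptors, shuttles and extraction factors 12 were higher (48.0%) and 2 lower (8.0%), with a median of 0.49. Among them were Ubap1, an ESCRT-I subunit (2.73), and the autophagy receptors Nbr1 (1.81) and Sqstm1 (1.40).

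Of 31 further cores and adaptors of cullin and APC/C ligases, 6 were higher (19.4%, against 14.7% of all genes) and 10 lower (32.3%, against 16.5%), with a median of −0.02. Cdc20, which activates the APC/C in mitosis, fell by 2.17, and the COP9 subunits, which take Nedd8 off cullins, split. Gps1 (−1.43), Cops3 (−1.47), Cops7a (−1.30) and Cops5 (−0.50) were called lower, and Cops6 (1.28) and Cops7b (1.06) higher. Cops2, Cops4 and Cops8 were not called. Of 42 genes listed as other ligases, among them the E2 Cdc34, 10 were higher (23.8%) and 8 lower (19.0%). Their median was 0.25, between Mkrn1 at 2.13 and Uhrf1 at −4.09. Of 15 other deubiquitinases and deSUMOylases 4 were higher (26.7%) and 3 lower (20.0%), with a median of −0.14, and 2 of these 15, Cops5 and Cops6, are also in the list of cullin components. Psmd14, the deubiquitinase of the proteasome lid, was at −1.38 and its partner Psmd7 at −2.0.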

How the data were processed

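Total RNA of 18 samples was read on Affymetrix MG-U74Av2 arrays. Per the labels, the deposited values are signal intensities, 1 per probe set and array, on a linear scale; how probes were summarised and scaled, and which were detected, is not stated there. The trimmed means of the arrays lay between 149.542 and 149.953, with 2% trimmed at each end, so the deposited intensities had been scaled. Of 12488 probe sets, 66 controls were left out. Gene names came from the platform table, where 10833 tested probe sets had 1 symbol, 396 several and 1193 none, and all 113 members were found under the same symbol in the RefSeq gene table. After 16 was added, log2 values were quantile normalized and fitted with limma 3.58.1 in R 4.3.3, with 1 mean per time and an intensity trend, on 12 residual degrees of freedom. P-values were adjusted by the Benjamini-Hochberg method over all 12422 probe sets. An exact permutation test of 3 against 3 arrays cannot give a p below 0.1, so none was used. The script was tested on simulated data. Nothing beyond the word biological describes the replicates, and the number of arrays limits the precision.

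The members and lists were chosen with earlier results of these data known. Genes were named as the 12 largest rises and falls at 30 h and the largest at other comparisons, beside all other members called at 30 h. Alternatives were other scalings, constants of 1 and 64, no trend, array weights, a filter on dim probe sets, a replicate block, fewer times, other choices of probe set and each array left out.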

Additional observations from a re-analysis of the deposited data

How the results depend on the processing

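Counts of members called moved by more than 1.5 times only at 3 h, at 7 h and between 14 h and 30 h. With all arrays the counts were 4, 8 and 22. Leaving out 1 array at a time gave 1 to 2 at 3 h, 5 to 8 at 7 h and 14 to 20 between 14 h and 30 h, in fits with fewer arrays. Scaling to a common median gave 4 at 7 h, and a fit of only the compared times gave 2 at 3 h and 5 at 7 h; the cause was not tested for the scaling. For 14 h, 21 h, 30 h and the F test, every alternative run kept the count within 1.5 times, as it did for the roles and lists at 30 h. The median log2 change of the members at 30 h, 0.159, was 0.0837 without quantile normalization, 0.0949 with median scaling, 0.108 with a constant of 64 and 0.230 without array 0 h B. No change followed turned its sign. Of 86 calls of single members, 55 held under every alternative run, and of the 45 at 30 h 30 did. The other 15 were Fbxo3, Fbxo9, Fbxo21, Fbxo38, Fbxw11, Nedd4, Rnf103, Rnf227, Siah2, Ube2v2, Usp3, Usp4, Usp10, Usp15 and Usp33. Usp3 lost its call when probe sets of uncertain kinds were left out (0.61, adjusted p = 0.0749). Median scaling ended the calls of Fbxo38 (0.42, adjusted p = 0.125) and Usp15 (0.50, adjusted p = 0.0677), among others. Usp4 (0.39, adjusted p = 0.0597) and Usp15 (0.44, adjusted p = 0.184) lost theirs when all probe sets of a gene were averaged.

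Arrays with the same replicate letter were little more alike than others, which cannot show whether the letters pair the arrays. Of 45 pairs of arrays with the same letter at different times, 3 had a correlation of deviations over 0.1, the highest 0.205. The median was 0.0266, against −0.00776 for pairs with different letters. With the letter as a replicate block the counts were 4 at 3 h, 8 at 7 h, 27 at 14 h, 40 at 21 h, 46 at 30 h, 21 between 14 h and 30 h and 50 in the F test, and Ube2v2 lost its call at 30 h (−0.74, adjusted p = 0.057).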
